A study of Drosophila melanogaster with 33 samples.

Results

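Lola-I, one of the zinc finger proteins made from the gene *lola*, was mapped by ChIP-seq in fly embryos, and the peaks described here lie at promoters of genes that have more than 1 place to start transcription. They were chosen by peak presence, by position and by annotation: a replicate 1 peak overlapped by a replicate 2 peak by at least 1 bp, a summit within 200 bp of the nearest transcription start site (TSS) of a protein-coding gene, and annotated TSSs of that gene that span more than 1000 bp. This selection gave 307 peaks at 271 genes, out of 1759 peaks in replicate 1 and 9674 in replicate 2. On the 7 chromosome arms, 1531 of 1750 replicate 1 peaks were shared, 758 of them lay at coding promoters, and 451 of those belonged to genes whose TSSs span 1000 bp or less. Of 13968 coding genes on the arms, 1752 have TSSs spanning more than 1000 bp, and 271 of these were bound, which is 15.5%. Of the 12216 coding genes with a shorter span, 449 were bound, or 3.68%. A gene of wider span can hold more start sites for a peak to lie at, so these shares are a description of the selection and were not tested. TSSs of a gene within 200 bp of each other were merged into 1 promoter, and promoters were numbered from the most upstream one in the direction of the gene.

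The embryos were wild type (OregonR), collected whole at 14 to 17 h and fixed, and the antibody was a rabbit polyclonal serum made to order against Lola-I. Of the 33 samples in 12 groups, the 2 Lola-I libraries of this genotype and age were used, and the 31 others were not analysed here. The labels number them as replicates and do not say whether the embryos came from separate collections. Whole embryos mix all tissues, and peak lists hold no RNA values, so the cells in which a promoter was bound cannot be told. Fold enrichment is the authors' own value for each peak in each list. Its scale differs between the lists, and a peak's percentile within its own list is given where lists are set side by side. All intervals are 95% Wilson intervals over genes, peaks or promoters, which are not independent replicates.

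A gene with alternative promoters can start its RNA at several places, so that transcripts differ in their first exon and sometimes in the start of the protein, and each promoter can be used in other tissues or at other times. The *lola* gene makes many proteins that share a BTB domain and differ in their zinc fingers, which read DNA, and it is known for roles in axon guidance and in neuronal identity. The series' title names Lola-I as a pioneer factor at promoters that sets up paused Pol II, a state in which the polymerase waits just downstream of the start site. GAF, another BTB protein of paused promoters, binds repeats of GA.

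The reference sequence of bound promoters is shown beside that of promoters of the same gene without a shared peak. Within a gene the pair differs in holding a shared peak and not in the gene's function. Of those without one, *Ald1* promoter 3 and *Hnf4* promoter 3 had a summit in replicate 2 alone, with fold enrichments of 13.7 and 8.95. Each run is the 150 bases just upstream of the promoter's TSS (for a bound promoter, the TSS nearest to the summit), 5′ to 3′ in the direction of the gene, from RefSeq Release 6 (dm6), and lies outside annotated exons. Capitals mark AAAGCT and its reverse complement, and GAGAG and its reverse complement. *Vha68-2* encodes the catalytic subunit of the proton-pumping V-ATPase, *Ald1* the glycolytic enzyme aldolase, *Idh* isocitrate dehydrogenase and *Gdh* glutamate dehydrogenase. The bound promoters of *Ald1*, *Idh* and *Gdh* held 5, 2 and 2 matches to AAAGCT, and the other promoter shown held 0.
*Vha68-2* promoter 1, bound, chr2L:12974172-12974321, plus strand: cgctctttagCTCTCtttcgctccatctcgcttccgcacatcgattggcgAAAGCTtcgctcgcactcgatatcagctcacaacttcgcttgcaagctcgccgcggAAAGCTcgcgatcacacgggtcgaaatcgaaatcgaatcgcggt
*Vha68-2* promoter 4, no shared peak, chr2L:12975252-12975401, plus strand: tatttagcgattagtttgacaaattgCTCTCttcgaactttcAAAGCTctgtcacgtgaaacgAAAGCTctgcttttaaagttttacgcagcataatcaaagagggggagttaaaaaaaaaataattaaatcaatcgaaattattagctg
*Ald1* promoter 1, bound, chr3R:26261592-26261741, minus strand: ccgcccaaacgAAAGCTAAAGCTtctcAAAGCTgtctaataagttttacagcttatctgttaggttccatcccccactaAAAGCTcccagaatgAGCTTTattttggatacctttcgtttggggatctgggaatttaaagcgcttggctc
*Ald1* promoter 3, no shared peak, chr3R:26259214-26259363, minus strand: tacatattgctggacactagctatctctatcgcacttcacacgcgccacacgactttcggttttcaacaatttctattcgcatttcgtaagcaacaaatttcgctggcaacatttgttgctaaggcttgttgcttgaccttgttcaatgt
*Idh* promoter 1, bound, chr3L:8360907-8361056, minus strand: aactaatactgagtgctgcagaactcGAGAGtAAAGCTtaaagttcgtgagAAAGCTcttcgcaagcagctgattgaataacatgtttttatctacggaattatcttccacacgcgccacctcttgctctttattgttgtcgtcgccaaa
*Idh* promoter 4, no shared peak, chr3L:8358126-8358275, minus strand: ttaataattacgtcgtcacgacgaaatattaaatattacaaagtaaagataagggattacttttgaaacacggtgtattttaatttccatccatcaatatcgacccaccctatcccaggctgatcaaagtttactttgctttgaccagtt
*Gdh* promoter 1, bound, chr3R:23943102-23943251, minus strand: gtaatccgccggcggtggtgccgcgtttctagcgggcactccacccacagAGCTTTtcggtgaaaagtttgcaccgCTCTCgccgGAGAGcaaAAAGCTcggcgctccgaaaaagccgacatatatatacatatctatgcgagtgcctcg
*Gdh* promoter 2, no shared peak, chr3R:23938771-23938920, minus strand: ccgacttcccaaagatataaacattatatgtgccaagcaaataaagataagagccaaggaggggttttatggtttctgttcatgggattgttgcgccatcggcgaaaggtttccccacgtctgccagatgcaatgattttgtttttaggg
*Vha68-2* differs from them: promoter 4, which had no summit in either list, also held 2 matches, as many as the bound promoter 1.

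Regulators and structural genes show the same contrast and its exceptions. *Hnf4* and *Eip75B* encode nuclear receptors, *Atpalpha* the catalytic subunit of the sodium and potassium pump, and *sdt* a scaffold protein of the apical epithelial membrane. In *Hnf4* and *sdt* the bound promoter held 2 matches to AAAGCT and the other promoter shown held 0. In *Eip75B* the bound promoter 4 held 1 match, 8.5 bp from the summit, and promoter 1 held 0. *bip1* has a shared peak at each of its promoters, and only the most upstream one held the word, with 4 matches, whereas promoter 2 held 4 matches to GAGAG. Promoter 2 of *cnc*, which encodes a stress-response transcription factor, was bound and held 0 matches to either word in these bases.
*Hnf4* promoter 1, bound, chr2L:8709612-8709761, minus strand: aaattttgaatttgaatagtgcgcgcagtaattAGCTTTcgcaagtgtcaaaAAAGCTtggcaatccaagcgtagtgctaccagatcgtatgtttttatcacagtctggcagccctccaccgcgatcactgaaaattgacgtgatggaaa
*Hnf4* promoter 3, no shared peak, chr2L:8699906-8700055, minus strand: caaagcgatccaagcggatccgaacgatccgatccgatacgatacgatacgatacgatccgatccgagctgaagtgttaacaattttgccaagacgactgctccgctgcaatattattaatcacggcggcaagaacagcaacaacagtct
*Eip75B* promoter 4, bound, chr3L:18026033-18026182, minus strand: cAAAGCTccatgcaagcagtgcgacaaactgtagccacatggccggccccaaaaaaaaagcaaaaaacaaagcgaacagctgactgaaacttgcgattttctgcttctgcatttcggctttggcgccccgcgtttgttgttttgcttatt
*Eip75B* promoter 1, no shared peak, chr3L:18064697-18064846, minus strand: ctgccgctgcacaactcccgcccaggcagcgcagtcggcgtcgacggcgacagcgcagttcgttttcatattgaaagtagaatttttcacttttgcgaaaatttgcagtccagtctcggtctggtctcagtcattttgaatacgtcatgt
*sdt* promoter 2, bound, chrX:8193050-8193199, plus strand: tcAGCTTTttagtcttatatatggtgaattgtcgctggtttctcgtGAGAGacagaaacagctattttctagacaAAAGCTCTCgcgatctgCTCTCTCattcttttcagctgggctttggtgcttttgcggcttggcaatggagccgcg
*sdt* promoter 1, no shared peak, chrX:8178399-8178548, plus strand: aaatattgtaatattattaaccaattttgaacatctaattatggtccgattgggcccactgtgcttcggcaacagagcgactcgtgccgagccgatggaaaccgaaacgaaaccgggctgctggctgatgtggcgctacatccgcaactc
*Atpalpha* promoter 2, bound, chr3R:20957584-20957733, plus strand: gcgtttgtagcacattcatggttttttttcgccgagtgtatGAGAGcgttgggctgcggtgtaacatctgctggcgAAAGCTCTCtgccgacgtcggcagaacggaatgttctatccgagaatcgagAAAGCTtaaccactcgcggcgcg
*bip1* promoter 1, bound, chr3L:8058714-8058863, minus strand: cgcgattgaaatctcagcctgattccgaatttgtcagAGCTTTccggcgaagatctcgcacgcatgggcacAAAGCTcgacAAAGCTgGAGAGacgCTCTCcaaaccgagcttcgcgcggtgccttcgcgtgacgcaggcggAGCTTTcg
*bip1* promoter 2, bound, chr3L:8056376-8056525, minus strand: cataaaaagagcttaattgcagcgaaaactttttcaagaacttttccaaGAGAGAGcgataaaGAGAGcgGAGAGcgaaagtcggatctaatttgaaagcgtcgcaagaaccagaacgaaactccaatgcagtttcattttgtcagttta
*cnc* promoter 2, bound, chr3R:23221962-23222111, minus strand: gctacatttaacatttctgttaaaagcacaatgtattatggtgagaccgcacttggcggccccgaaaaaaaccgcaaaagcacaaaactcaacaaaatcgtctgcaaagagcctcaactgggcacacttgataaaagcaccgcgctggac
These runs were picked after the peaks were known, and a match is a description of the letters, not a mapped site.

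The promoter that was bound was the most upstream one about as often as not. Of the 271 bound genes, 140 had a shared peak at the most upstream promoter, or 51.7% (45.7 to 57.6%), whereas most upstream promoters make up 30.6% of the 886 promoters of these genes. The most downstream promoter held a peak in 71 genes, or 26.2% (21.3 to 31.7%). Among the 166 genes with 3 or more promoters, 89 had a peak at an internal one, or 53.6% (46 to 61.0%). Over all 1752 genes with alternative promoters, 7.99% of most upstream promoters and 5.24% of the 3184 later promoters were bound.

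The shares were also taken by the number of promoters in a gene. In genes with 2 promoters, 7.86% (6.31 to 9.76%) of the upstream and 4.15% (3.05 to 5.62%) of the downstream promoters were bound, and these intervals do not overlap. With 3 promoters the values were 8.39% (6.22 to 11.2%) and 5.35% (4.09 to 6.96%), and with 4 they were 9.85% (6.39 to 14.9%) and 6.05% (4.38 to 8.29%). In genes with 5 or more promoters, 4.97% (2.43 to 9.89%) of the most upstream and 5.92% (4.41 to 7.90%) of the later promoters were bound. The share was higher at the upstream end in genes with 2, 3 and 4 promoters, and the intervals overlapped from 3 promoters on. The difference was not tested, nor was its change with the number of promoters. Seen from the bound genes, a peak lay at the most upstream promoter in 74 of 105 genes with 2 promoters, 40 of 79 with 3, 19 of 47 with 4, and 7 of 40 with 5 or more. Genes with more promoters were also bound more often at any of them: 11.2% with 2, 16.6% with 3, 24.4% with 4 and 28.4% with 5 or more. Each further promoter is a further place for a summit, and this increase was not tested against that number.

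**Figure D1:**
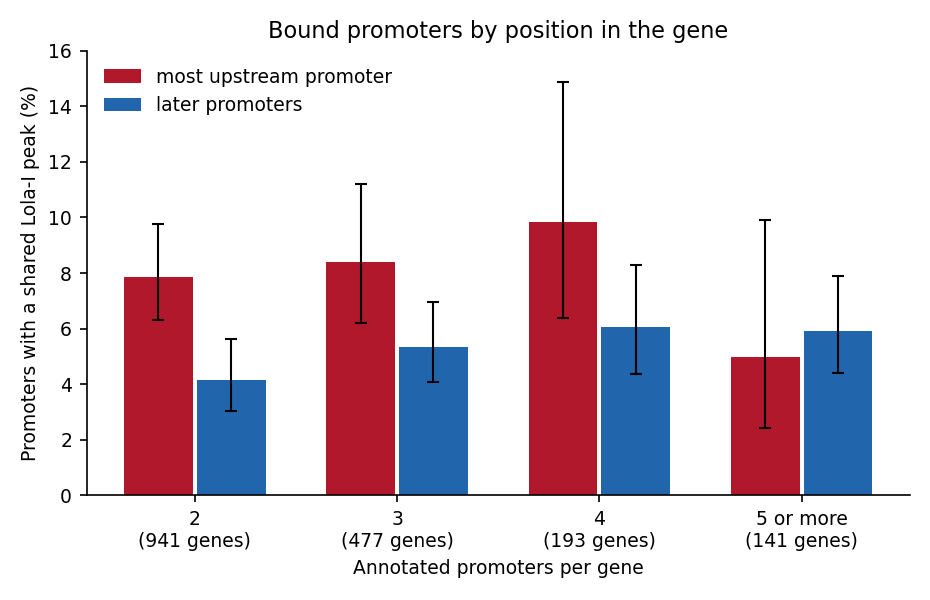
Share of promoters with a shared Lola-I peak (vertical axis, percent) for the most upstream promoter (red) and the later promoters (blue) of coding genes with 2, 3, 4 and 5 or more annotated promoters; bars are shares and lines 95% Wilson intervals. The most upstream promoters lie at 7.86% and the later ones at 4.15% in genes with 2 promoters, and at 4.97% and 5.92% in genes with 5 or more.

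Most bound genes had a shared peak at 1 promoter only. Over all genes with alternative promoters, 7.99% of most upstream and 5.24% of later promoters were bound, so by these shares alone few genes would hold 2. The share with 1 was not tested against them. A single bound promoter was found in 238 of 271 genes, or 87.8% (83.4 to 91.2%), 30 genes had 2 bound promoters and 3 genes had 3. The 579 other promoters of the bound genes included 166 (28.7%) with a summit in replicate 2 only and 409 (70.6%) with no summit in either list, and the remaining 4 had another shared summit. Of the 238 genes with 1 bound promoter, 120 had no summit of either list at any other promoter, and 118 had a replicate 2 summit at 1 or more of them. The median fold enrichment of these peaks found by replicate 2 alone was 5.53 (n = 166), against 34.8 (n = 280) for the replicate 2 summits at bound promoters. Replicate 2, with the longer list, thus placed further peaks at the other promoters. Its promoter with the highest −log10 p-value was a bound one in 246 of the 263 genes that had a replicate 2 summit at a promoter (93.5%, 89.9 to 95.9%). In the other 8 genes the overlapping replicate 2 peak had its summit at no promoter. Of all 307 bound promoters, 280 had a replicate 2 summit within 200 bp, and at the rest only the replicate 1 summit places the peak. A shared peak must be found by the shorter list too, so a high replicate 2 value at bound promoters follows in part from the selection. The 854 genes with alternative promoters and promoter summits in replicate 2 only had 1 such promoter in 71.7% (68.5 to 74.6%) and one at the most upstream promoter in 67.2% (64.0 to 70.3%). Most upstream promoters are 34.3% of their promoters, a share of promoters and not of genes.

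Single genes show what this looks like. At *Ald1*, the most upstream of 4 promoters had fold enrichments of 95.3 in replicate 1 and 475 in replicate 2, promoters 2 and 3 had replicate 2 values of 2.94 and 13.7, and promoter 4 had no summit. At *Idh*, promoter 1 of 4 had 31.2 and 290.5 and promoter 2 had 3.12 in replicate 2, 0.431 kb downstream. *Gdh* had 28.7 and 139 at promoter 1 and no summit at promoter 2, 4.33 kb away. The same held at a later promoter of other genes. At *Atpalpha*, promoter 2 had 11.7 and 114, and promoter 1, which starts 9.02 kb upstream and carries 7 of the 11 annotated transcripts, had no summit. At *sdt*, promoter 2 of 5 had 15.0 and 93.5, and the other promoters, spread over 52.1 kb, had none. On dm6 these peaks span chr3L:8360789-8361214 at *Idh* (FBgn0001248) and chr3R:23942898-23943370 at *Gdh* (FBgn0001098). The peak of *Atpalpha* (FBgn0002921) spans chr3R:20957557-20957984 and that of *sdt* (FBgn0261873) chrX:8193006-8193396, both in introns of the transcripts that start upstream.

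**Figure D2:**
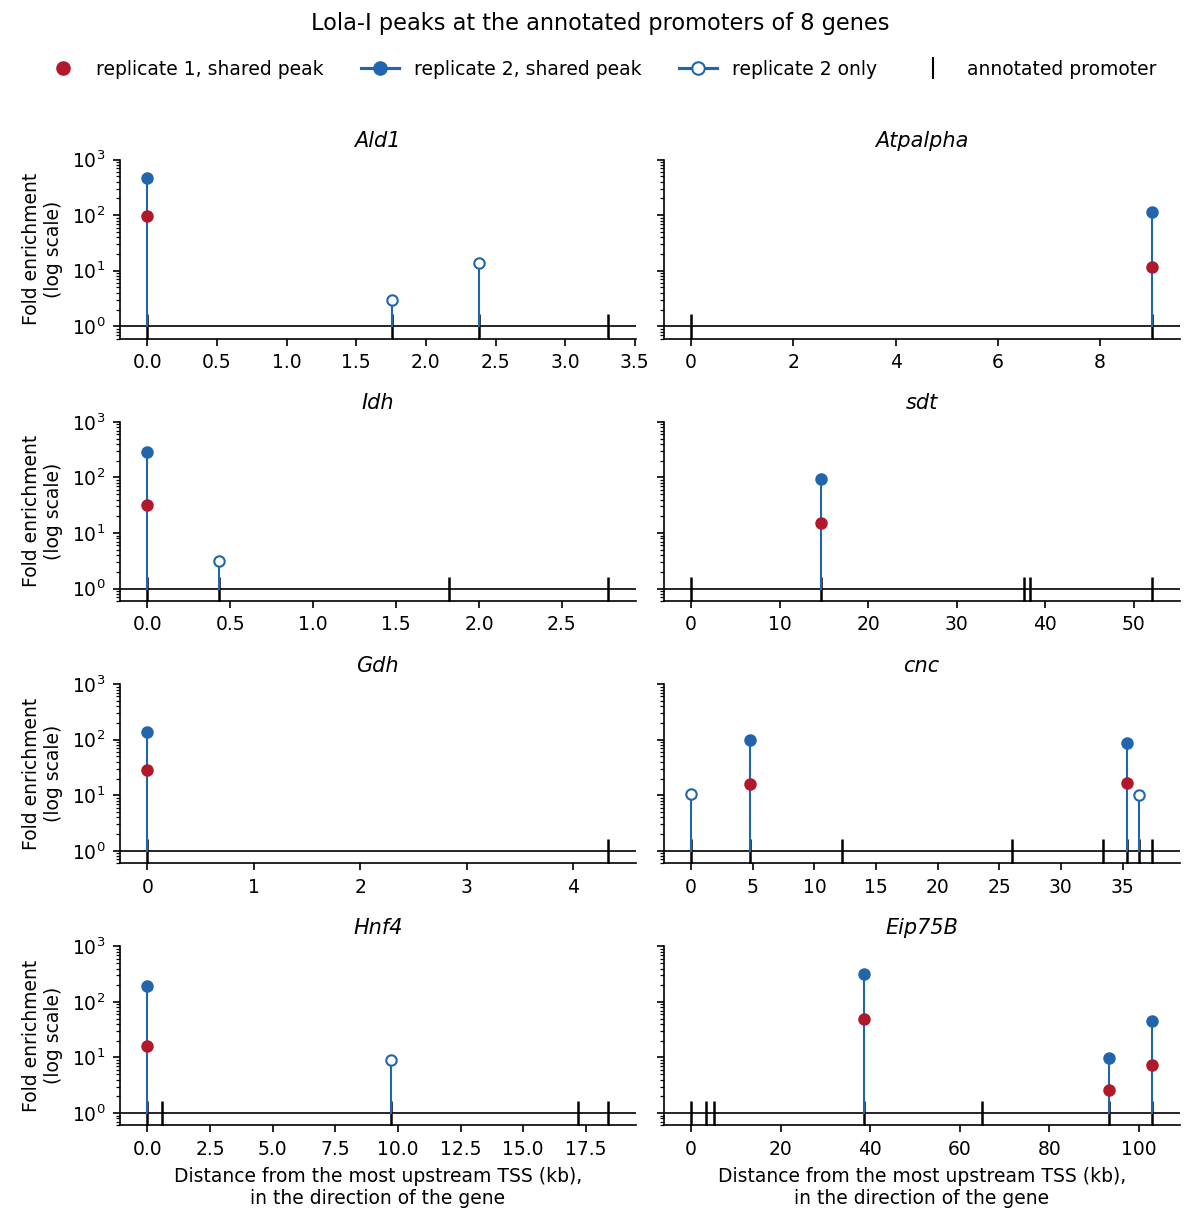
Lola-I fold enrichment (vertical axis, log scale) at each annotated promoter (tick) of 8 bound genes, against the distance from the most upstream TSS in kb in the direction of the gene; filled points are shared peaks in replicate 1 (red) and replicate 2 (blue), open points are promoters with a summit in replicate 2 only. The most upstream promoter holds the highest point in the left column (*Ald1*, *Idh*, *Gdh*, *Hnf4*) and a later promoter does in the right column (*Atpalpha*, *sdt*, *cnc*, *Eip75B*).

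By function, the lists of carbohydrate and energy metabolism and of lipid metabolism had the highest shares of bound genes among 12 lists. The share over all 1752 genes with alternative promoters was 15.5%. In the list of carbohydrate and energy metabolism, 8 of 21 such genes were bound, or 38.1% (20.7 to 59.1%). Without *Ald1*, known to be bound when the list was written, it was 7 of 20, or 35.0%. The best peaks of these 8 genes had a median percentile of 81.3 in the replicate 1 list, against 54.0 over all 271 bound genes. Besides *Ald1*, *Idh* and *Gdh* they included *Pfk*, the phosphofructokinase that commits sugar to glycolysis, with fold enrichments of 13.3 and 109 at the downstream of its 2 promoters. *Gpo1*, a mitochondrial glycerol-3-phosphate dehydrogenase, had 7.93 and 50.6 at the most downstream of 4 promoters. *Argk1*, arginine kinase, had 2.71 and 18.9 at promoter 3 of 6. Of this list, *Pde11*, a cyclic nucleotide phosphodiesterase (2.81 and 36.3), and *Sam-S*, S-adenosylmethionine synthetase (2.45 and 8.03), do not do what the list's name says. Both are counted in the 38.1%, in the 35.0% and in the median percentile. The 2 shares would be lower without them and were not computed so. The place of this list among the 12 is thus that of the list as written. The bound promoter was the most upstream one in 3 of the 8 genes, so genes of this list were bound at different places along the gene.

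In lipid metabolism 8 of 21 genes were also bound, 38.1% (20.7 to 59.1%), with a median percentile of 68.7. They were *wun*, a lipid phosphate phosphatase that guides germ cells, *norpA* and *Plc21C*, phospholipases of type C, *Desat1*, a fatty acid desaturase, *Pld*, phospholipase D, *Lpin*, a phosphatidate phosphatase, *LpR2*, a lipophorin receptor, and *whd*, a carnitine palmitoyltransferase. The highest, *wun*, had fold enrichments of 19.3 and 79.2 at promoter 2 of 2, and *norpA* had 11.7 and 116 at promoter 1 of 3. *Desat1* had 10.9 and 60.6 at promoter 5 of 5, while *whd* had 3.33 and 16.2 at promoter 2 of 2. *Pld* had a shared peak at each of its 3 promoters and *Plc21C* at each of its 2. No replicate 2 summit lay within 200 bp of *Pld* promoter 2 or *Plc21C* promoter 1. Further enzymes stood among the 192 bound genes that none of the lists holds, and were named after their values were seen. *Shmt* (FBgn0029823, peak at chrX:5916112-5916840), serine hydroxymethyltransferase of folate metabolism, had 52.7 and 287 at promoter 2 of 3, *AcCoAS*, acetyl-CoA synthetase, had 15.2 and 101 at promoter 2 of 3, and *slgA*, proline dehydrogenase, had 8.29 and 61.4 at promoter 2 of 6. Lower values were found at *Ogdh*, 2-oxoglutarate dehydrogenase (6.91 and 58.6), and at the more enriched of the 2 bound promoters of *PCB*, pyruvate carboxylase (3.22 and 18.0).

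Transcription factors made up the longest list, with 72 genes with alternative promoters and 17 bound, or 23.6% (15.3 to 34.6%). The interval holds the 15.5% of all genes. The 17 are not all bound transcription factors, as *twi*, *salr*, *shn* and *nub* were also bound and stand outside the list. Nuclear receptors and hormone-response factors were among them: *Eip75B*, *Eip78C* and *Eip74EF* respond to the moulting hormone ecdysone, and *gce* is a receptor of juvenile hormone. *Eip75B* had the highest peak of the list, with fold enrichments of 48.6 and 313 at promoter 4 of 7, 38.7 kb from the most upstream one (FBgn0000568, peak at chr3L:18025984-18026339, intronic for the longer transcripts). *Hnf4* (FBgn0004914, peak at chr2L:8709509-8709775), a nuclear receptor that controls lipid and glucose use, had 15.9 and 197 at promoter 1 of 5, and promoter 3 had 8.95 in replicate 2 alone. The NF-kappaB proteins were represented by *Dif* (18.5 and 106 at promoter 1 of 2) and *dl* (12.8 and 66.5 at promoter 1, 8.75 and 40.6 at promoter 2 of 3). *chinmo*, a BTB factor of neuronal timing, had 6.30 and 28.6 at promoter 1 of 2, and *Mef2*, the muscle differentiation factor, had 4.13 and 24.4 at promoter 1 of 3. The bound promoter was the most upstream in 9 of the 17 genes.

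The gene that encodes Lola-I was bound itself, at a low value. *lola* (FBgn0283521, peak at chr2R:10541589-10541880) had 1 shared peak at promoter 2 of 4, 1.62 kb from the most upstream one, with fold enrichments of 3.92 and 25.6, at percentile 46.1 of the replicate 1 list. Its other promoters had summits in replicate 2 alone, with fold enrichments of 8.24, 5.85 and 8.30. This promoter starts 8 of the 24 annotated *lola* transcripts, promoter 3 starts 11, and the transcripts of all promoters share their start codons. The antibody was raised against Lola-I, and no value in these lists tells which *lola* isoform is made from the bound promoter.

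Genes of membrane transport and of neurons were bound at intermediate shares, and intervals held the background. Of ion channels, pumps and transporters, 11 of 53 were bound, or 20.8% (12 to 33.5%), and 9 of 51, or 17.6%, without the 2 genes known beforehand. *Vha68-2* had 64.8 and 479 at promoter 1 of 4, and *Ca-beta* and *Ca-alpha1D*, subunits of voltage-gated calcium channels, had 10.9 and 46.7 at promoter 1 of 3 and 12.1 and 97.1 at promoter 2 of 2. *nemy*, a membrane protein of a cytochrome family, and *emp*, a scavenger receptor, stand in this list without being channels, and *nemy* had 74.7 and 429 at promoter 2 of 4. Membrane trafficking gave 5 of 18, or 27.8% (12.5 to 50.9%): the small GTPases *Rab32* (13.6 and 76.6) and *Rab26* (12.8 and 56.9), the calcium sensor *Syt1* (14.3 and 36.8), the fusion clamp *cpx* (4.11 and 37.1) and the active-zone protein *brp* (2.61 and 24.7). At *Syt1* the overlapping replicate 2 peak had no summit within 200 bp of the promoter. Of 16 neuronal marker genes with alternative promoters 4 were bound, or 25% (10.2 to 49.5%), namely *cac*, *Syt1*, *cpx* and *brp*, which the lists of channels and of trafficking also hold.

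The remaining lists ranged from 22.4% down to 0 of 21 genes. Kinases, phosphatases and their regulators gave 8 of 47, or 17.0% (8.89 to 30.1%), among them *Ptp99A*, a receptor tyrosine phosphatase of axons (10.7 and 75.5), *CaMKII*, the calcium and calmodulin-dependent kinase (6.33 and 57.3), and *InR*, the insulin receptor (4.09 and 15.9). Small GTPases and the actin cytoskeleton gave 11 of 49, or 22.4% (13 to 35.9%), led by *shot*, a giant linker of actin and microtubules with 7.85 and 98.7 at promoter 4 of 4. *Mhc*, muscle myosin heavy chain, and *Actn*, alpha-actinin, belong to the same list, with 3.67 and 38.8 and with 3.63 and 6.97. Adhesion, axon guidance and matrix gave 4 of 34, or 11.8% (4.67 to 26.6%), and these were the matrix metalloproteases *Mmp1* and *Mmp2*, *sdt* and *Sdc*, the heparan sulfate proteoglycan syndecan. Signalling ligands, receptors and regulators also gave 4 of 34, with *mthl10*, a receptor of the Methuselah family (FBgn0035132, peak at chr3L:342812-343243), at 68.8 and 501, and 3 of 33, or 9.09%, without it. RNA-binding proteins gave 3 of 31, or 9.68% (3.35 to 24.9%), namely *AGO1*, *shep* and *bol*. No shared peak was found at any of the 21 listed chromatin and transcription cofactor genes with alternative promoters. The list was written by hand and does not hold every such gene: *mam*, *ush* and *Snoo* were bound and stand outside it. A count of 0 allows a share of up to 14.3% (3 counts of the total), and the Wilson interval reaches 15.5%, so this list is not shown to lie below the background. Over all lists 79 of the 271 bound genes were listed at least once and 192 were in none, 63 of all bound genes being known only by a CG number.

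**Figure D3:**
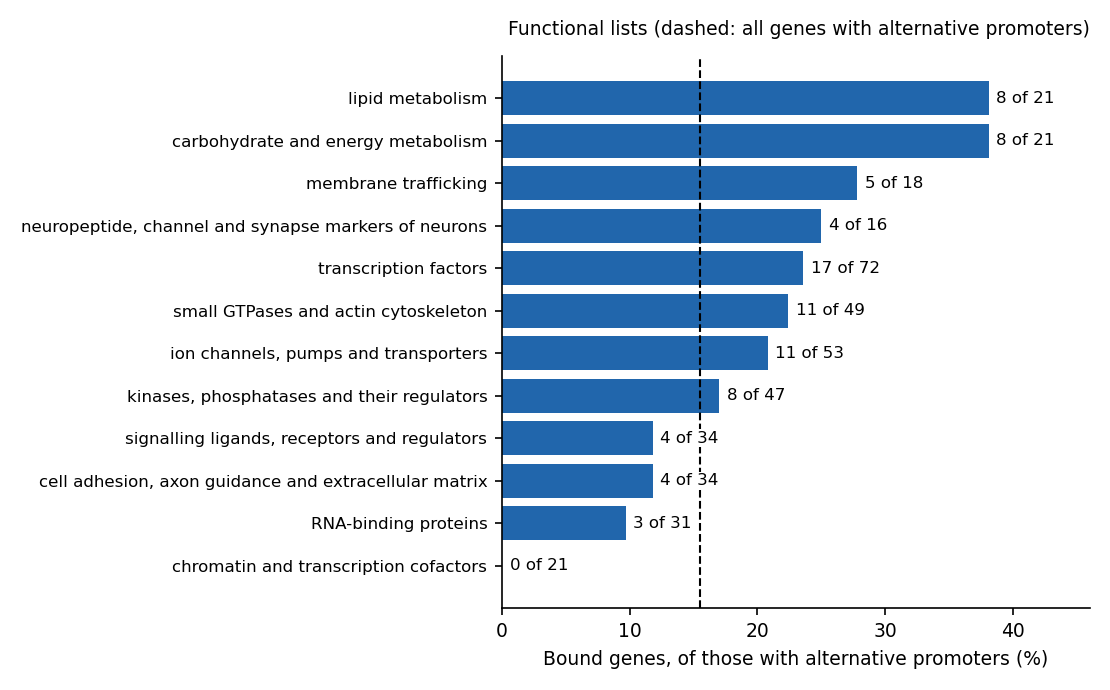
Share of genes with alternative promoters that hold a shared Lola-I promoter peak (horizontal axis, percent) in 12 functional lists, with the bound genes out of all such genes of the list beside each bar and the share over all 1752 genes, 15.5%, as a dashed line. Both metabolic lists stand at 38.1% and the listed chromatin cofactors at 0 of 21. A gene can stand in several lists, and the lists do not hold every gene of a function.

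Several genes had shared peaks at 2 or more promoters, and in 9 of these all promoters were bound. *bip1* had fold enrichments of 20.8 and 118 at promoter 1 and 12.7 and 72.4 at promoter 2, 2.34 kb apart. *vari*, a scaffold of septate junctions, had 14.5 and 103 at promoter 1 and 4.52 and 50.5 at promoter 2, and *Pu*, the GTP cyclohydrolase of pteridine synthesis, had 4.43 and 23.8 at promoter 1 and 15.1 and 93.5 at promoter 2. *cnc* had nearly equal peaks of 15.9 and 98.5 at promoter 2 and 16.5 and 85.8 at promoter 6 of 8, while promoters 1 and 7 had 10.6 and 9.93 in replicate 2 alone. *Eip75B* had 3 bound promoters, with 48.6 and 313 at promoter 4, 2.65 and 9.97 at promoter 6, and 7.42 and 45.1 at promoter 7, which lie 38.7, 93.3 and 103 kb from the most upstream one. Its promoter 6 peak had its replicate 1 summit 170 bp inside the gene, and no replicate 2 summit lay within 200 bp of that promoter. *Mmp1* (promoters 1 and 3), *IA-2* (1 and 2 of 3), *CG46385* (1, 2 and 3 of 4) and *Pld* (all 3) completed those named. At *CG46385* promoter 3 and *Pld* promoter 2 no replicate 2 summit lay within 200 bp. In genes with more than 1 bound promoter, the bound promoters farthest apart were separated by a median of 4.42 kb (quartiles 2.34 and 22.3, n = 33).

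Other genes had many promoters and few peaks. *Svil*, the actin-binding supervillin, has 16 promoters over 117 kb, of which promoter 4 (3.45 and 22.8) and promoter 14 (3.63 and 16) were bound, and 5 more had replicate 2 summits of 3.55 to 8.10. *CAP*, an adaptor of muscle and cell junctions, was bound at promoters 3 and 9 of 10, *Pde8*, a phosphodiesterase, at promoter 6 of 9, and *Sarm*, a neurodegeneration factor, at promoter 5 of 8. *Kank* had a strong peak, 29.5 and 258, at the last of 7 promoters, 24.6 kb from the first. The bound promoter lay farthest downstream in *CG32816*, at 136 kb, followed by *Eip75B* at 103 kb, *Ptp99A* at 102 kb and *shep* at 93.1 kb, with *Svil* at 89.2 kb.

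Peaks at later promoters lay inside the gene, which follows from the place of these promoters, and mainly in introns. Of the 167 peaks at later promoters, 143 (85.6%, 79.5 to 90.2%) lay in an intron of every transcript that starts upstream and spans the summit, and 24 lay in an exon of some. This share was not computed for later promoters without a shared peak, so it is not shown to be particular to bound ones. The bound later promoters were a median of 5.17 kb from the most upstream one (quartiles 1.89 and 15.0 kb). The bound genes had a median of 3 promoters and a TSS span of 6.65 kb, beside 2 promoters and 3.79 kb in the 1481 genes with alternative promoters that were not bound. A bound promoter carried the most annotated transcripts of its gene in 179 of 271 genes, 66.1% (60.2 to 71.4%). Of all promoters of these genes 46.1% carry the most, ties included, which is a share of promoters and not of genes.

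The annotation tells whether the bound promoter changes the start of the protein. In 116 of 271 genes (42.8%, 37.1 to 48.8%) transcripts from bound promoters shared no start codon with those from the other promoters, in 65 (24.0%) they shared some, and in 81 (29.9%) all start codons were the same. The remaining 9 genes had all promoters bound. Over all 1752 genes, setting the most upstream promoter against the later ones gave 38.7%, 18.2% and 43.1%, a different split of promoters, so the shares are not the same measure. *Gdh*, *Pfk*, *Ptp99A*, *slo*, *shot*, *brp*, *sdt*, *Kank* and *Eip75B* were among the genes without a shared start codon. In *Ald1*, *Vha68-2*, *mthl10*, *Mef2*, *InR* and *lola* the bound and the other promoters led to the same start codons. Only start codons were compared, so these transcripts can still differ further downstream, as those of *lola* do in their zinc fingers. Of 763 coding transcripts that start at bound promoters, 593 (77.7%, 74.6 to 80.5%) have their start codon after the first exon. The share was not computed for transcripts of other promoters, so it is not shown to be particular to bound ones.

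Summits lay upstream of the start site. The median position was -63 bp from the nearest TSS, with quartiles at -103 and -22 bp, and 265 of 307 summits (86.3%, 82.0 to 89.7%) were upstream. At most upstream promoters the median was -65.5 bp and at later promoters -60.0 bp, so the position hardly changed with the place of the promoter in the gene. The 451 shared peaks at coding genes with a shorter span had their median at -46 bp and 79.4% (75.4 to 82.9%) upstream. The summits of the replicates lay a median of 22.0 bp apart, and at most 1163 bp.

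**Figure D4:**
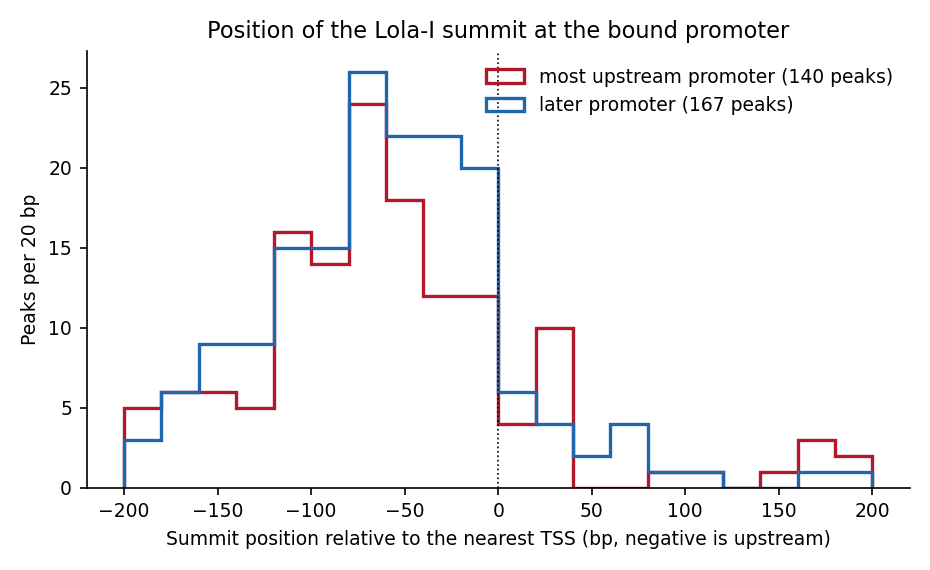
Number of peaks per 20 bp (vertical axis) by the position of the replicate 1 summit relative to the nearest TSS in bp (horizontal axis, negative is upstream) for 140 peaks at most upstream promoters (red) and 167 at later promoters (blue). Both distributions lie mostly upstream of the TSS, with medians of -65.5 and -60.0 bp.

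Peak heights did not separate most upstream from later promoters. Over the 307 peaks, the median fold enrichment was 4.77 (1.70 to 95.3) in replicate 1 and 35.0 (2.67 to 501) in replicate 2, at median percentiles of 52.7 and 92.0 within the lists. Peaks at most upstream promoters had medians of 4.67 and 37.0 and those at later promoters 4.78 and 34.2, with interquartile ranges that overlap widely. The 451 peaks at genes of shorter span had medians of 4.96 and 37.6. These values chose which peaks were called in the lists and carry no test.

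The 12 peaks with the smallest sum of ranks over the lists were at *Vha68-2*, *Ald1*, *mthl10*, *nemy*, *Shmt*, *Syn2*, *Eglp4*, *Eip75B*, *Kank*, *Idh*, *CG10433* and *tow*. Their fold enrichments lay between 16.6 and 95.3 in replicate 1 and between 138 and 501 in replicate 2. *Syn2*, a syntrophin of the dystrophin complex, had 61.0 and 279 at promoter 1 of 2, and *Eglp4*, a channel protein of the aquaporin family, had 25.4 and 187 at promoter 1 of 3. *CG10433* had 29.9 and 187, and *tow* had 16.6 and 138, each at promoter 1 of 2. All of these summits lay upstream of the TSS, between -186 and -18 bp.

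**Figure D5:**
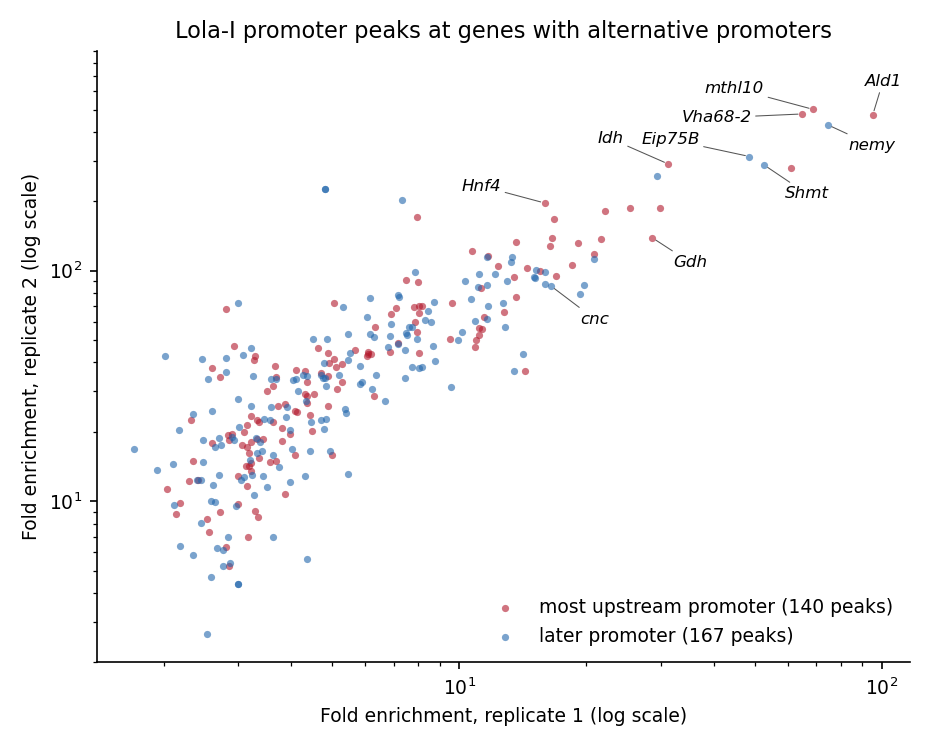
Fold enrichment of the 307 shared peaks in replicate 1 (horizontal axis) and replicate 2 (vertical axis), both on log scales, with peaks at most upstream promoters in red and at later promoters in blue; each point is 1 peak. Red points lie between 2.04 and 95.3 and blue points between 1.70 and 74.7 in replicate 1, and for genes with several peaks the label marks the one with the smallest sum of ranks.

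The words marked in the sequences above were counted over all promoters, from 150 bp upstream to 50 bp downstream of the TSS on both strands. AAAGCT was found at 200 of 307 bound promoters, 65.2% (59.7 to 70.3%), at 83 of 575 other promoters of the same genes, 14.4% (11.8 to 17.5%), and at 15.5% (15.0 to 16%) of all 18317 promoters of coding genes. Bound most upstream promoters held it in 63.6% and bound later promoters in 66.5%, and the bound promoters of genes with a shorter span in 72.1%. The other promoters of the same genes that had a replicate 2 summit held it in 21.1% (15.6 to 27.9%), and promoters with replicate 2 summits alone, in genes without a shared peak, in 13.5% (11.6 to 15.6%). Within the 262 genes that have a promoter of each kind, the word was at a bound promoter alone in 129, at both kinds in 49, at another promoter alone in 24, and at none in 60. The pairs printed for *Ald1*, *Idh*, *Gdh*, *Hnf4* and *sdt* belong to the first kind in the bases shown. The word was noted in earlier results of these peaks, so its share describes them and does not test it.

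The word was more frequent around summits of high rank. AAAGCT occurred within 50 bp of 170 of 307 summits, 55.4% (49.8 to 60.8%), and within 150 bp of 75.2%, at a median distance of 27.5 bp. In 4 groups of about equal size by rank sum, from the highest peaks to the lowest, the share within 50 bp was 77.6%, 68.8%, 44.2% and 31.2%. The intervals of the highest group (67.1 to 85.5%) and of the lowest (21.9 to 42.2%) do not overlap. Within 150 bp the shares were 94.7%, 92.2%, 62.3% and 51.9%, so much of this fall is peaks with no such word in reach. Among the peaks that held it within 150 bp, the median distance was 18.0, 27.5, 31.5 and 41.0 bp, with interquartile ranges that overlap. In the same groups the share of peaks at most upstream promoters was 48.7%, 45.5%, 50.6% and 37.7%, with intervals that overlap.

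Other short words were counted in the same windows. AAGCTC, which shares 5 letters with the first word, was at 49.8% of bound promoters and 9.39% of the other promoters, beside 9.88% of all. The overlapping AAGCTT was at 30.9% and 5.39%, beside 7.16%. GAGAG was at 56.7% (51.1 to 62.1%) of bound promoters, 36.0% (32.2 to 40.0%) of the other promoters of the same genes and 25.6% of all coding promoters, but at 41.7% of the bound promoters of genes with a shorter span. It was at 50.0% of the other promoters with a replicate 2 summit and at 48.2% of those bound in replicate 2 alone. TCAGT, the core of the initiator, was sought from -10 to 10 in the direction of the gene and found at 30.6% of bound promoters, 20.4% of the other promoters and 13.4% of all, but at 31.3% (24.8 to 38.7%) of the other promoters with a replicate 2 summit. TATAAA, sought from -45 to -15 as the TATA box, was found at 4.24%, 2.96% and 7.87%.

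By chromosome arm, bound genes made up 18.0% of those with alternative promoters on 2L, 16.2% on 2R, 16.4% on 3L, 15.3% on 3R, 13% on 4 and 11.9% (8.88 to 15.7%) on X. The intervals of all arms overlap one another. At the edges of the selection, the farthest summit inside the distance limit was at *kcc*, a potassium and chloride cotransporter, at 198 bp, and the nearest one outside was at *Trpm*, at 203 bp. The smallest span inside was that of *Hydr1*, at 1029 bp, the largest outside that of *CG8500*, at 977 bp, and the smallest overlap between the replicates was 95 bp, at *px*. Some assignments are less certain than the rest: 8 summits also had a start site of another coding gene within 200 bp, 4 of them equally near to both genes, and 4 peaks shared their replicate 2 peak with another of the 307.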

How the data were processed

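Embryos were fixed with formaldehyde and the chromatin sonicated and immunoprecipitated, per the labels' protocols. Per the submitters' processing notes, CASAVA 1.8.2, Bowtie 1.0.0 and the build dm6 were used. The peak caller, its control and its filters are not given in the sources used here. The authors deposited 1 peak list per replicate, and each peak has a score, a fold enrichment (a ratio over the caller's background), a −log10 p-value, a −log10 q-value and a summit offset. Peak lists give no depth, so how precise a peak's value is cannot be stated, and intervals cover counting error only.

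From these, overlaps, summit distances, promoters and words were computed with NumPy 2.4.6 and SciPy 1.17.1 under Python 3.11.15, and drawn with matplotlib 3.10.9. Genes came from Ensembl release 115 (BDGP 6.54), and RefSeq Release 6 gave the sequence, all in dm6 coordinates. Peaks off the 7 arms were left out. Ranks are by −log10 p-value within a list, and percentiles rise with it. The counting was checked on simulated data. No test was made, because the peaks were selected on the values described. The members, the word list and the gene lists, written from general knowledge, were chosen with earlier results of these data known, and 5 bound genes (*Vha68-2*, *Ald1*, *mthl10*, *nemy*, *lola*) were known when the lists were written.

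Named were the 12 peaks with the smallest rank sum, up to 8 genes with 2 or more bound promoters, the 5 genes with the most promoters, the 5 with the bound promoter farthest downstream, the 3 highest genes of each list, *lola*, and the peaks at the edges of the selection. Other genes were named for their role or for a count once their values were known. Alternatives changed the overlap rule, distance, span, promoter merging, summit, list and word window.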

Additional observations from a re-analysis of the deposited data

How the results depend on the processing

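Of 74 values recomputed under other settings, 56 stayed within 1.5 times the reported one (counts) or inside its 95% interval (shares and medians), and 18 moved. A reciprocal overlap of at least 50% left 162 peaks at 156 genes, with 96.8% of genes bound at 1 promoter and a median summit at -72.0 bp. A distance limit of 100 bp gave 93.1% with 1 bound promoter, a median of -47 bp and AAAGCT at 72.4% of bound promoters, and a limit of 500 bp gave the word at 57.0%. The 50% of each list with the higher −log10 p-values left 167 peaks at 152 genes, with the word at 82.0%. A word window starting 100 bp upstream gave 50.5%. With each replicate list alone, without replicate 1 or without replicate 2, the number of peaks ranged from 311 to 1584, of genes from 274 to 1117, the share at the most upstream promoter from 52.2 to 67.8%, that with 1 bound promoter from 66.2 to 87.6%, the median summit from -62 to -45 bp and the share with the word from 23.9 to 64.3%. The values far from the reported ones are those without replicate 1, which rest on the longer list of replicate 2. The cause of the other shifts was not tested. Merging TSSs within 100 or 500 bp left the share with the word at 65.2 and 65.4%, alternatives chosen after seeing the data. No paired analysis was possible because 1 group of 2 libraries was used and no test was made.

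Without read counts, weak binding at a promoter without a summit cannot be told from too few reads. Lists of 16 to 72 genes give wide intervals.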

Other observations

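Some bound genes that the text above does not describe encode muscle proteins. They were picked by hand after their values were seen, no list of muscle genes was written, and their values stand for no group. *Msp300*, a giant protein that anchors nuclei, had fold enrichments of 3.23 in replicate 1 and 13 in replicate 2 at promoter 2 of 5. *Mf*, myofilin, had 3.02 and 21 at promoter 2 of 3. *Scgdelta*, a sarcoglycan of the dystrophin complex, had 3.10 and 19.9 at promoter 1 of 2, whereas *Syn2*, a syntrophin of that complex, was among the 12 highest peaks.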
